A study of Mus musculus with 28 samples.

Results

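The 8 genes described here make cholesterol or report on how much of it a cell holds. They were chosen by name, and all 8 were found among the 29413 genes of the table of BMP-treated cultures and the 55416 genes of the table of Tgfb-treated cultures. They include 6 enzymes of the synthesis pathway (Hmgcs1, Idi1, Fdft1, Sqle, Lss and Cyp51), the transcription factor gene Srebf2 and the sterol sensor gene Insig1. RNA was sequenced from wild-type C57BL/6 mouse small-intestinal organoids, which are epithelial cultures that grow from crypts in a gel. Crypts were first kept in ENR medium without any Bmp or Tgfb, and recombinant ligand was then given at 500 ng/ml for 24 h. The BMP table holds 4 untreated control samples, 4 with BMP2 and 3 each with BMP3, BMP4, BMP5 or BMP7, and the TGFb table holds 3 untreated and 3 Tgfb samples. Replicate numbers are II, III, IV and VI for the controls and BMP2, II, III and IV for BMP3, II, III and VI for BMP4, BMP5 and BMP7, and I, II and III in the TGFb table. Nothing in the labels says whether replicates came from separate cultures or animals, so p-values measure the spread between these samples, which may be technical.

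Cholesterol is built from acetyl-CoA. HMG-CoA synthase (Hmgcs1) opens the mevalonate pathway, isopentenyl diphosphate isomerase (Idi1) supplies its isoprenoid building blocks, and squalene synthase (Fdft1) commits them to sterols. Squalene epoxidase (Sqle), lanosterol synthase (Lss) and the lanosterol demethylase Cyp51 then close and trim the ring system. When sterols in the endoplasmic reticulum run low, the protein SCAP carries SREBP2, the product of Srebf2, to the Golgi, where it is cut into an active transcription factor. It switches on the enzymes, Insig1 and Srebf2 itself. INSIG1, the product of Insig1, holds SCAP and SREBP2 back when sterols are plentiful. The small intestine both takes up cholesterol from food and makes its own.

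The BMP table holds normalized counts, which are read counts divided by 1 size factor per sample, so a gene's values can be set side by side across samples but not across genes. Its samples held 21356682 to 24788661 recovered reads, and each of the 8 genes had at least 1165 reads in every sample. Summed over all genes, normalized counts averaged 19885612 ± 702378 (SD, n = 4) in untreated samples. The BMP2 sum was 27350549 ± 1181883 (SD, n = 4) and the BMP4 sum 26232395 ± 706629 (SD, n = 3), so scaling to the same total lowers BMP2 and BMP4 values against the controls. Epithelial markers (Epcam, Cdh1, Vil1, Krt8, Krt18 and Krt20) were detected in all groups but were not constant. Their sum was 96100 to 106820 normalized counts in the controls and 98410 to 109680 with BMP3. It was 584000 to 748800 with BMP2, 240800 to 345900 with BMP4, 175120 to 292600 with BMP5 and 215710 to 308100 with BMP7. Of the markers of other cells, the 5 mesenchymal ones in the table summed to between 25.1 and 228 normalized counts per sample, and Dcn was at 0 in every group. In bulk RNA, fewer cells of a type and less RNA per cell cannot be told apart.

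Per length, the 8 transcripts could be ranked only in the TGFb table, whose values are TPM, a transcript's length-corrected share of the sample. In its untreated samples the order was Hmgcs1 at 259 ± 26.5 TPM, Idi1 at 226 ± 19.6, Insig1 at 187 ± 22.2, Cyp51 at 140 ± 11.2, Sqle at 115 ± 12.7, Fdft1 at 86.5 ± 2.35, Lss at 82.5 ± 8.95 and Srebf2 at 72.9 ± 3.62 (SD, n = 3 each). All 8 stood between the 86.7th and the 96.6th percentile of the 12582 genes with a control mean of at least 1 TPM. The ranges of neighbours in that order overlapped for Hmgcs1 and Idi1, Idi1 and Insig1, Fdft1 and Lss, and Lss and Srebf2. Insig1 lay above Cyp51, Cyp51 above Sqle and Sqle above Fdft1 in all 3 samples each.

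The promoters of 6 of the 8 genes were in the RefSeq table used (GRCm38.p6), which gives 250 bases before and 50 after each gene start. The 4 shown belong to the genes on which the comparisons turn: Hmgcs1 and Insig1, with the largest rises with BMP4, Lss, which moved in opposite directions with BMP2 and BMP4, and Srebf2. Capitals mark every match, on either strand, to TCACNCCAC or its shorter form TCACNCCA (core of the sterol regulatory element, the second lying within the first), to CCAAT (the motif of NF-Y) and to GGGCGG (the motif of Sp1). NF-Y and Sp1 are known partners of SREBP proteins. A match on the other strand reads ATTGG or CCGCCC.
Hmgcs1, chr13:119690101-119690400, plus strand: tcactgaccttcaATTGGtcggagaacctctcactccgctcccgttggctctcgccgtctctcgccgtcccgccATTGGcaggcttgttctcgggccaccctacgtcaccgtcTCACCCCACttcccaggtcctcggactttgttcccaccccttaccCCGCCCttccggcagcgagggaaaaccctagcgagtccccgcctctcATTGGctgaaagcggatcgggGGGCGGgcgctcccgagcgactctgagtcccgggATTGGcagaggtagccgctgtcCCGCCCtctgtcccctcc
Srebf2, chr15:82147019-82147318, plus strand: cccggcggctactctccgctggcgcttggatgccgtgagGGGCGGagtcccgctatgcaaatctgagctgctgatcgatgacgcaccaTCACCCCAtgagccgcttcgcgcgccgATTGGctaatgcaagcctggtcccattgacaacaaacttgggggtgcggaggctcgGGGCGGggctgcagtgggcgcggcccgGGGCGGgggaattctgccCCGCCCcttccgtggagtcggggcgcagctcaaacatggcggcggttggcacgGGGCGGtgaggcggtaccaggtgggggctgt
Insig1, chr5:28071162-28071461, plus strand: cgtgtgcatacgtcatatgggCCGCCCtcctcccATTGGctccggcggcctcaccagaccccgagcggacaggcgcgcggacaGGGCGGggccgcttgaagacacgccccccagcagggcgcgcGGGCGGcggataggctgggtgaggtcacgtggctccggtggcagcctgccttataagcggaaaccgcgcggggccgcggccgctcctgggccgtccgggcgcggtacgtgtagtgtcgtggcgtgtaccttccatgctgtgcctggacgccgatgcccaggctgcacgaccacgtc
Lss, chr10:76531355-76531654, plus strand: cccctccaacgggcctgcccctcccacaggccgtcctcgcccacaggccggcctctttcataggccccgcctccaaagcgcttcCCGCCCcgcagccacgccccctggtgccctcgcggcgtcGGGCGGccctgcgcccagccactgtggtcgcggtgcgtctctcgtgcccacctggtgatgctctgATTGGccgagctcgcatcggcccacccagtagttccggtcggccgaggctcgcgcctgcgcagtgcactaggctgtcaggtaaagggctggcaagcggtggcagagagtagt

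The full form TCACNCCAC was present in the Hmgcs1 window, and 1.24% of all 32851 promoter windows in the table hold it. The shorter TCACNCCA was present in Hmgcs1 and Srebf2, against 4.36% of all windows. CCAAT and GGGCGG were both present in 6 of 6 windows, and 12.8% of all windows hold both. Hmgcs1 had 4 CCAAT and 3 GGGCGG matches, Srebf2 had 1 and 5, Insig1 had 1 and 3, and Lss had 1 and 2. These are letter matches in a fixed window and no binding was measured.

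With BMP4, sterol synthesis transcripts rose together. Against the controls, 7 of the 8 genes rose, none fell, and Srebf2 did not pass the test (limma on log2(value + 1), Benjamini-Hochberg adjusted p under 0.05 over all genes). Of all 14746 genes tested, 33.7% were called higher in this comparison, 31.4% lower and 65.1% in either direction. The median of the 8 log2 fold changes was 0.85, beside 0.04 over all genes tested. In all 7 genes that rose, every BMP4 sample lay above every control sample, as did 33.8% of all genes tested.

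**Figure D1:**
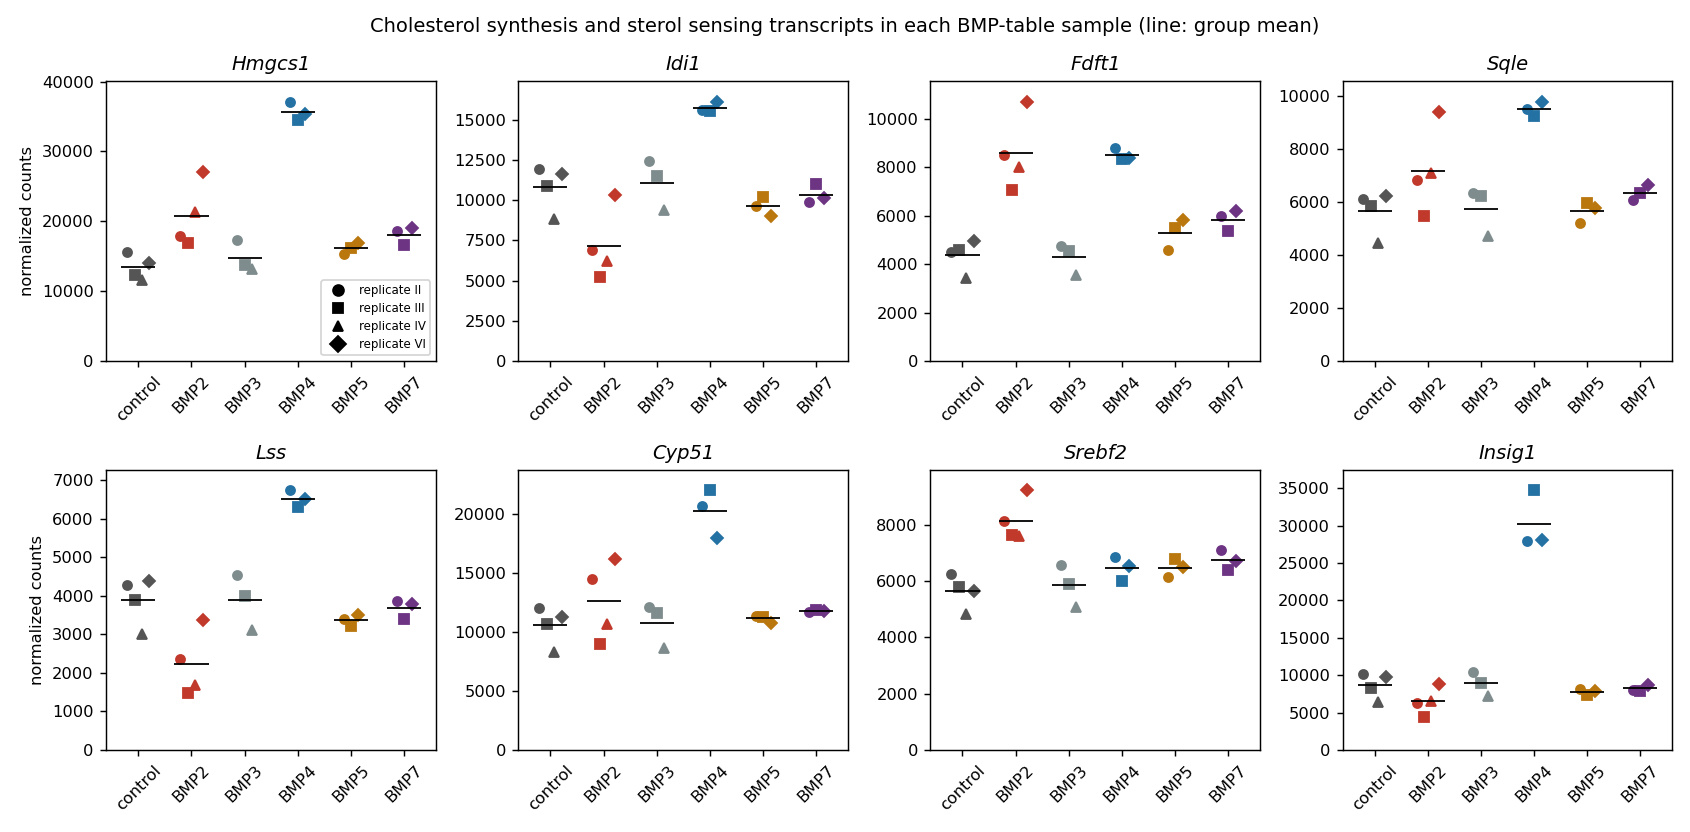
Normalized counts (linear axis from 0) of the 8 transcripts in each of the 20 samples of the BMP table, with 1 marker shape per replicate number and a line at the group mean. BMP4 samples stand above all controls for 7 of the 8 genes (not Srebf2). Lss and Idi1 have their lowest values with BMP2, and replicate IV of the controls is the lowest control for all 8 genes.

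Insig1 changed most. The controls held 10100, 8230, 6450 and 9820 normalized counts in replicates II, III, IV and VI, and the BMP4 samples 27900, 34700 and 28100 in replicates II, III and VI. The lowest BMP4 sample was therefore far above the highest control, and the log2 fold change was 1.82 (SE 0.19, limma adjusted p 1.2e-07). INSIG1 is the brake on SREBP2 processing, and its gene is itself an SREBP2 target. Hmgcs1, the enzyme that condenses acetyl-CoA units into HMG-CoA, came next. It stood at 15600, 12400, 11600 and 14100 in the controls and at 37100, 34500 and 35300 with BMP4, a log2 fold change of 1.42 (SE 0.14, limma adjusted p 1.0e-07).

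Fdft1, Cyp51 and Sqle rose less with BMP4 than Insig1 and Hmgcs1. Fdft1, the branch point into sterols, went from 4520, 4590, 3430 and 4940 in the controls to 8790, 8350 and 8370 with BMP4 (log2 fold change 0.97, SE 0.14, limma adjusted p 8.3e-06). Cyp51 went from 12000, 10700, 8280 and 11300 to 20700, 22000 and 18000 (0.95, SE 0.17, limma adjusted p 9.4e-05). Sqle, a rate-limiting oxygen-dependent step, went from 6140, 5880, 4450 and 6250 to 9530, 9270 and 9800 (0.76, SE 0.15, limma adjusted p 0.00022). All 3 BMP4 samples lay above all controls in each of these, and Cyp51 spread most among them.

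Lss and Idi1 had the smallest rises. Lss stood at 4280, 3880, 3020 and 4390 in the controls and at 6730, 6300 and 6520 with BMP4 (log2 fold change 0.76, SE 0.20, limma adjusted p 0.0031). Idi1 stood at 11900, 10900, 8840 and 11600 and at 15600, 15500 and 16100 (0.55, SE 0.17, limma adjusted p 0.0072). Srebf2, which encodes the transcription factor, overlapped between the groups. It read 6260, 5800, 4840 and 5650 in the controls and 6850, 5990 and 6520 with BMP4, a log2 fold change of 0.20 (95% interval -0.02 to 0.41, limma adjusted p 0.0965). It passed without control replicate II (0.25, limma adjusted p 0.0491). Its fold change was the smallest of the 8.

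How far BMP4 organoids differed from controls depended on the scaling. With every sample scaled to the same total, which moved the median over all genes from 0.04 to -0.35 and the called genes from 4964 higher and 4633 lower to 3100 higher and 6864 lower, 5 of the 8 genes were called higher and 1, Srebf2, lower (-0.20). Insig1 (1.42), Hmgcs1 (1.02), Fdft1 (0.57), Cyp51 (0.55) and Sqle (0.36) were those 5, all above the shifted median of all genes, and Lss (0.36, limma adjusted p 0.0928) and Idi1 (0.15, limma adjusted p 0.386) lost the call. With quantile normalization, Insig1, Hmgcs1 and Fdft1 remained called higher and Srebf2 was called lower (-0.29, limma adjusted p 0.0045). The rises of Insig1, Hmgcs1 and Fdft1 with BMP4 passed in all 17 alternatives run.

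**Figure D2:**
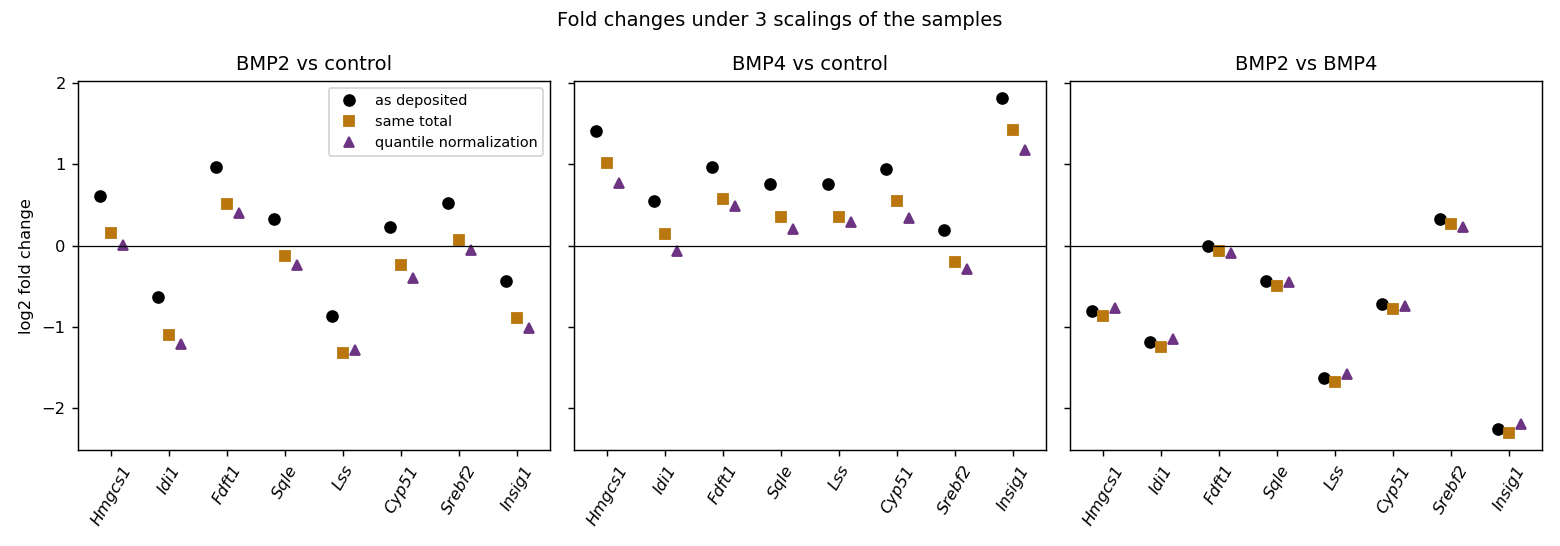
Log2 fold changes of the 8 genes (vertical axis) as deposited, with samples scaled to the same total, and after quantile normalization, for BMP2 against control, BMP4 against control and BMP2 against BMP4. Both alternatives shift the comparisons with the controls downward for all 8 genes, while the 3 markers of each gene nearly coincide for BMP2 against BMP4.

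BMP2 split the same genes. In that comparison 4 of the 8 were called higher (Fdft1, Hmgcs1, Srebf2 and Sqle), 3 lower (Lss, Idi1 and Insig1), and Cyp51 did not pass. Of all genes tested, 36.8% were called higher, 38.4% lower and 75.1% in either direction with BMP2, so the members' share of calls was near the background. The median log2 fold change of the 8 was 0.28, beside -0.03 over all genes. BMP2 samples did not overlap the controls for 3 of the 8, all higher (33.2% of all genes tested lay wholly above the controls and 34.4% wholly below).

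Fdft1 was the member that rose most with BMP2. It read 8520, 7070, 8010 and 10700 normalized counts in replicates II, III, IV and VI, all above the controls (log2 fold change 0.97, SE 0.13, limma adjusted p 2.1e-06). Hmgcs1 read 17900, 16900, 21300 and 27100, also above all controls (0.62, SE 0.13, limma adjusted p 0.0004). Srebf2 read 8130, 7630, 7590 and 9210, and these 4 values were higher than in any other sample of the table (0.53, SE 0.09, limma adjusted p 5.1e-05). Sqle read 6830, 5470, 7110 and 9400, overlapped the controls, and passed narrowly (0.33, SE 0.14, limma adjusted p 0.0403).

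Lss and Idi1 fell with BMP2. Lss read 2360, 1490, 1690 and 3380, with 3 of 4 samples below every control (log2 fold change -0.86, SE 0.19, limma adjusted p 0.00042). Idi1 read 6880, 5210, 6210 and 10300, with 3 of 4 samples below every control (-0.63, SE 0.15, limma adjusted p 0.0011). In both genes replicate VI was the high one and lay within the control range. Insig1 read 6350, 4370, 6580 and 8810 and overlapped the controls (-0.43, SE 0.17, limma adjusted p 0.0338). Cyp51 read 14500, 9020, 10700 and 16200, a spread that spans the controls (0.23, 95% interval -0.11 to 0.56, limma adjusted p 0.202).

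Scaling bears on the higher calls with BMP2 more than on the lower ones. With the same total in every sample, the median over all genes moved to -0.48 and the calls over all genes from 5420 higher and 5657 lower to 3627 higher and 7783 lower. Of the members, Fdft1 (0.51) was then called higher and Lss (-1.32), Idi1 (-1.09) and Insig1 (-0.89) lower, while Hmgcs1 (0.16, limma adjusted p 0.214), Srebf2 (0.07, limma adjusted p 0.393) and Sqle (-0.13, limma adjusted p 0.338) were not called. Cyp51, uncalled as deposited, stood at -0.23 (limma adjusted p 0.163) with the same total. With quantile normalization it was called lower (-0.40) and Srebf2 stood at -0.06. The rise of Fdft1 and the falls of Lss and Idi1 passed in all 18 alternatives. Insig1 lost its call without BMP2 replicate III (-0.25, limma adjusted p 0.162), BMP2 replicate II, control replicate II or control replicate VI, and Sqle without BMP2 replicate VI (0.19, limma adjusted p 0.183), BMP2 replicate II, BMP2 replicate IV, control replicate III or control replicate IV. Both also lost it with no filter and with only the compared groups, and Sqle with edgeR (0.30, edgeR adjusted p 0.0547) and without replicate IV in any group, so that 6 of 18 alternatives changed the Insig1 result and 11 of 18 the Sqle result. Cyp51 passed without BMP2 replicate III (0.38, limma adjusted p 0.0317).

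Set directly against BMP4, BMP2 samples had lower sterol transcripts. Here 6 of the 8 genes were lower with BMP2, 1 (Srebf2) was higher, and Fdft1 did not pass, where 33.4% of all genes tested were called lower and 33.4% higher. Insig1 differed most (log2 fold change -2.25, SE 0.19, limma adjusted p 5.4e-09), then Lss (-1.62, SE 0.20), Idi1 (-1.18, SE 0.17), Hmgcs1 (-0.80, SE 0.14), Cyp51 (-0.72, SE 0.17) and Sqle (-0.43, SE 0.15, limma adjusted p 0.017). In the first 5 of these no BMP2 sample reached a BMP4 sample (30.4% of all genes tested), while Sqle of BMP2 replicate VI (9400) lay among the BMP4 samples. Srebf2 was the exception in direction, higher in all 4 BMP2 samples than in any BMP4 sample, as were 30.2% of all genes tested (0.33, SE 0.10, limma adjusted p 0.0078). Fdft1 differed by -0.00 (95% interval -0.30 to 0.30). These calls passed in all 17 alternatives run, scalings included, except Sqle without BMP2 replicate III (-0.31, limma adjusted p 0.0687).

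Ratios between transcripts of the same sample are free of any factor that multiplies the whole sample, and were computed after the split had been seen. Relative to the control mean, Fdft1 over Lss was 3.61 ± 0.71 (SD, n = 4) in BMP2 samples, whereas BMP4 samples stood at 1.16 ± 0.02 (SD, n = 3). Fdft1 over Idi1 was 3.05 ± 0.34 with BMP2 and 1.34 ± 0.05 with BMP4. BMP2 samples, at 2.81 to 4.22 for the first ratio, lay above every other sample in both. Insig1 over Hmgcs1 was 1.33 ± 0.21 with BMP4, against 0.487 ± 0.063 (BMP2), 0.753 ± 0.060 (BMP5) and 0.711 ± 0.033 (BMP7), so of these 4 ligands BMP4 alone had a mean above the controls. Hmgcs1 over Srebf2 was 2.32 ± 0.08 with BMP4 and between 1.05 and 1.13 on average with each of the other 4 BMP ligands.

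**Figure D3:**
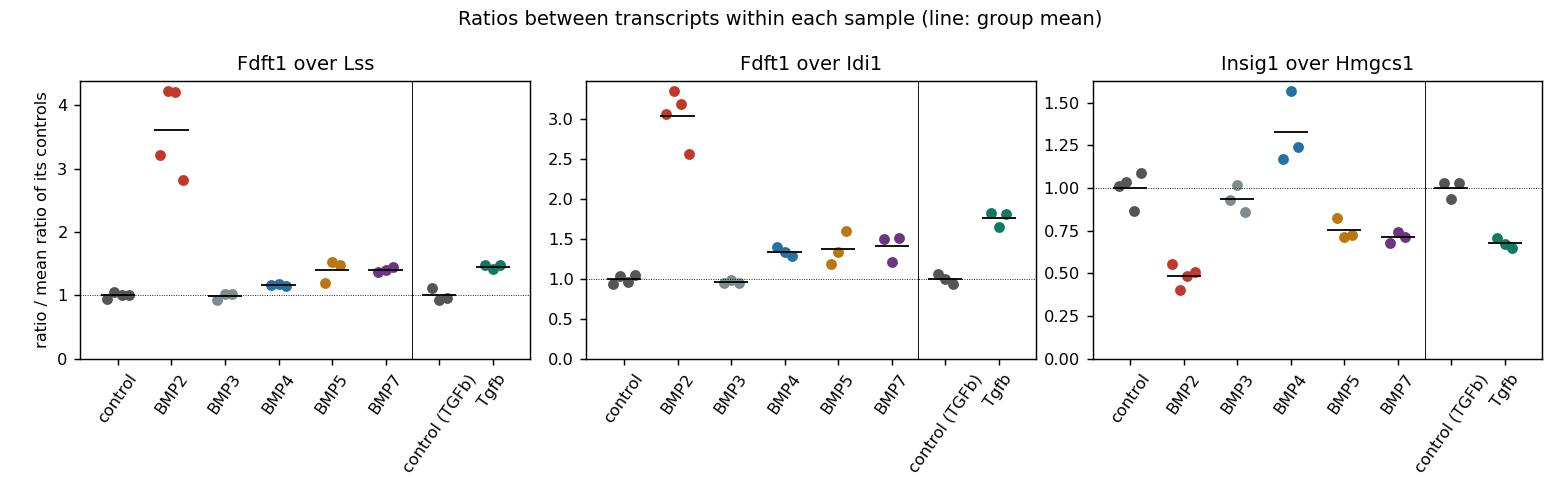
Ratio between 2 transcripts within each sample, divided by the mean ratio of the controls of the same table (linear axes from 0, line at the group mean, vertical line between the BMP table and the TGFb table). Fdft1 over Lss and Fdft1 over Idi1 are highest with BMP2, and Insig1 over Hmgcs1 is above all controls with BMP4 and lowest with BMP2.

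BMP5 and BMP7 left most of these genes near the controls. With BMP5, 0 of the 8 passed at adjusted p under 0.05 by limma (26.3% of all genes tested did, in either direction), 0 of the 8 had an unadjusted p under 0.05, and edgeR and DESeq2 also called 0. Their 95% intervals lay within -0.62 and 0.59 on the log2 scale. With BMP7, 2 rose and none fell (19.2% of all genes tested were called higher and 13.2% lower). Hmgcs1 read 18600, 16600 and 19000 with BMP7, above all controls (log2 fold change 0.44, SE 0.14, limma adjusted p 0.0275). Fdft1 read 5990, 5360 and 6180, also above all controls (0.43, SE 0.14, limma adjusted p 0.0273). The comparisons of the BMP table use the same 4 controls. Side by side, Hmgcs1 had log2 fold changes of 0.62 (BMP2), 1.42 (BMP4), 0.28 (BMP5) and 0.44 (BMP7), and Fdft1 of 0.97, 0.97, 0.29 and 0.43.

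The BMP7 calls rest on few samples. None of the 8 passed without BMP7 replicate II, without BMP7 replicate VI or without control replicate IV, and without control replicate III only Fdft1 did. Srebf2 read 7090, 6390 and 6720 with BMP7, above all controls, as were Hmgcs1, Fdft1 and 21.6% of all genes tested, with a log2 fold change of 0.26 (limma adjusted p 0.0584). With the replicate number as a block it was 0.20 (limma adjusted p 0.0355), and it also passed with edgeR, with DESeq2 and without control replicate II (0.31, limma adjusted p 0.0346). No difference between BMP5 and BMP7 passed for any member (0 of 8 by limma, with 0 at an unadjusted p under 0.05 and 0 by edgeR and DESeq2, where 0.0136% of all genes tested were called). All 8 means were lower with BMP5, and the 95% intervals of the difference reached from -0.59 to 0.35. For Cyp51 (10800 to 11400 against 11700 to 11900) and Sqle (5230 to 5970 against 6100 to 6670) every BMP5 sample lay below every BMP7 sample, as for 2.45% of all genes tested.

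BMP3 samples resembled the controls. By limma 0 of the 8 genes passed, as did 0.0% of all genes tested, 0 of the 8 had an unadjusted p under 0.05, and edgeR and DESeq2 called 0 of the 8. The 8 log2 fold changes lay between -0.02 and 0.14 and their 95% intervals between -0.43 and 0.44. Among the 5 ligands, limma's moderated F-test called 8 of 8 genes, against 84.1% of all genes tested.

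**Figure D4:**
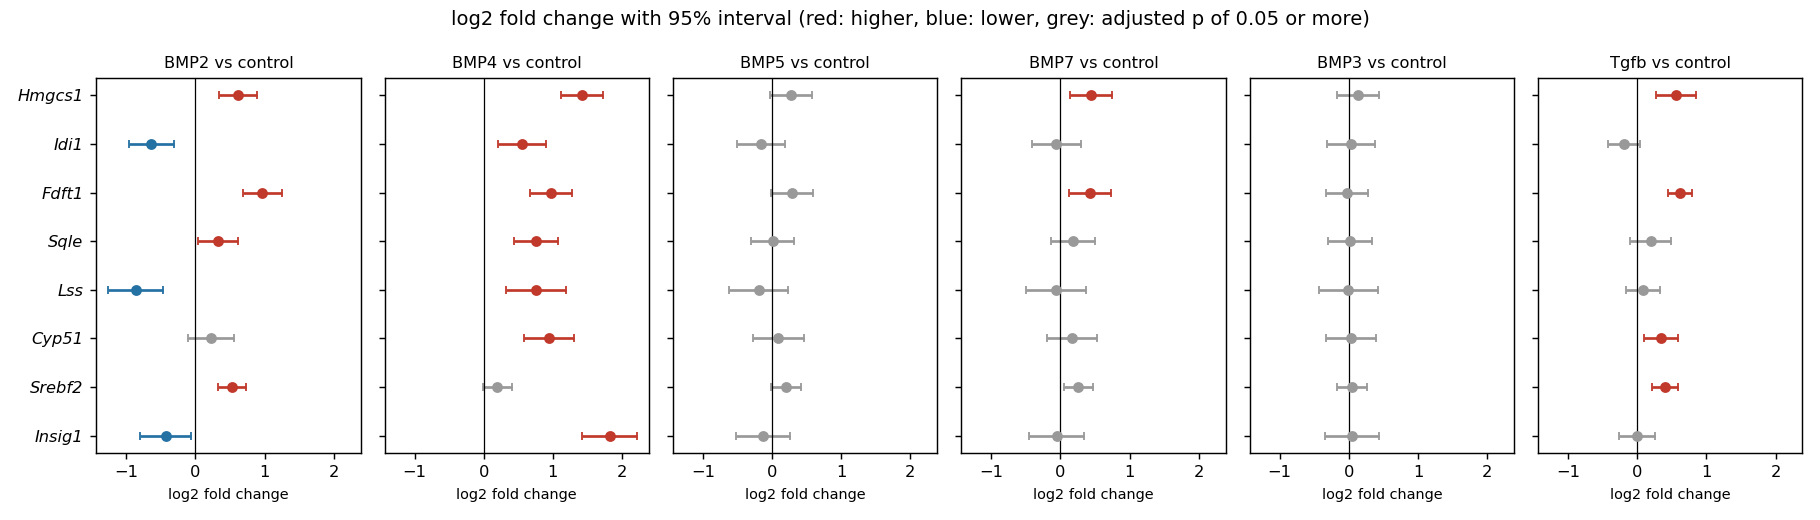
Log2 fold change of the 8 genes with its 95% interval for each ligand against the controls of its table (horizontal axis), red where called higher, blue where called lower and grey where the limma adjusted p was 0.05 or more. Red points number 7 with BMP4, 4 with BMP2 and 4 with Tgfb, and the intervals with BMP3 and BMP5 all include 0.

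Tgfb was tested in its own table, in TPM. Here 4 of the 8 genes rose (Fdft1, Hmgcs1, Srebf2 and Cyp51), none fell, and 27.4% of the 12959 genes tested were called higher and 29.3% lower. Fdft1 read 85.0, 85.3 and 89.2 TPM in the controls and 127, 130 and 144 with Tgfb (log2 fold change 0.62, SE 0.07, limma adjusted p 0.00056). Hmgcs1 read 233, 259 and 286 TPM and then 337, 385 and 431 (0.57, SE 0.12, limma adjusted p 0.0077). In both genes all Tgfb samples were above all controls (31.1% of all genes tested were).

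Srebf2 read 69.0, 73.6 and 76.1 TPM in the controls and 90.2, 97.7 and 102 with Tgfb, again without overlap (log2 fold change 0.40, SE 0.08, limma adjusted p 0.0043). Cyp51 read 131, 137 and 153 TPM and then 159, 184 and 192 (0.34, SE 0.10, limma adjusted p 0.0262). The Cyp51 call was lost without control replicate I, control replicate II, Tgfb replicate II or Tgfb replicate III (limma adjusted p 0.0771 to 0.0814). Idi1 read 208, 223 and 247 TPM in the controls and 180, 205 and 207 with Tgfb, all lower (33.5% of all genes tested were), and did not pass (-0.19, 95% interval -0.42 to 0.03, limma adjusted p 0.127). With quantile normalization Idi1 was called lower (-0.24, limma adjusted p 0.0084).

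Insig1, Lss and Sqle overlapped between Tgfb and control samples. Insig1 read 173, 176 and 213 TPM in the controls and 172, 187 and 203 with Tgfb (log2 fold change 0.00, 95% interval -0.26 to 0.26). Lss differed by 0.08 (95% interval -0.16 to 0.32) and Sqle by 0.20 (95% interval -0.10 to 0.50). Within samples, Fdft1 over Idi1 was 1.76 ± 0.10 times its control mean with Tgfb, Fdft1 over Lss 1.45 ± 0.03 and Insig1 over Hmgcs1 0.677 ± 0.029 (SD, n = 3 each). None of these Tgfb samples overlapped the controls of its table.

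Fdft1 carries a caution of annotation. Its transcript shares 774 bases, on the opposite strand, with that of Ctsb, which encodes the lysosomal protease cathepsin B, and whether counting used the strand is not given in the sources used here. Ctsb itself rose with BMP2 (log2 fold change 0.54) and BMP4 (0.93), while with Tgfb, where Fdft1 rose, it differed by 0.03 (95% interval -0.15 to 0.21), and with BMP7 by -0.06. Ctsb's part in the Fdft1 values with BMP2 and BMP4 was not tested. Idi1 has a processed pseudogene, Gm13502, identical over 684 bases, and another, Gm35570, 97.7% identical over 681 bases. Neither has a row in the BMP or the TGFb table, and their part in the Idi1 values was not tested.

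The 8 genes also moved together between replicates. After subtraction of the group means, the 28 pairs of members had correlations of 0.64 to 0.93 (median 0.82) over the 20 samples of the BMP table, which share their libraries and scaling, so this is a description. The levels themselves, with group means kept, correlated between -0.31 (Idi1 with Srebf2) and 0.98. In control replicate IV all 8 genes were below the group mean, by 0.31 on average on the log2 scale, and in BMP3 replicate IV all 8 were below by 0.25. With BMP2, all 8 were below the group mean in replicate III (by 0.36) and above it in replicate VI (by 0.43). The median over all genes deviated by at most 0.06 in any sample, as in these 4. BMP4, BMP5 and BMP7 have no replicate IV, so the low control IV raises their fold changes. Without replicate IV in any group, 6 of the 8 genes were called with BMP2 (Sqle was lost), 7 with BMP4 and 0 with BMP7. The median of the 8 log2 fold changes then moved from 0.85 to 0.74 with BMP4, from 0.18 to 0.06 with BMP7 and from 0.05 to -0.06 with BMP5. It moved from 0.28 to 0.20 with BMP2 and from 0.03 to 0.06 with BMP3.

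Most of 14 other enzymes of the pathway, counted from a list that holds no member, rose with BMP4 too. With BMP4, 10 rose and 1 fell (median log2 fold change 0.78), where 33.7% of all genes tested were called higher and 31.4% lower. With the same total 7 rose and 1 fell, where 3100 of the 14746 genes tested were called higher and 6864 lower. The one that fell was Lbr, a sterol reductase that also anchors chromatin to the nuclear lamina, at -1.64 (SE 0.18). Lbr also fell with BMP2 (-3.10), Tgfb (-1.53), BMP7 (-0.67) and BMP5 (-0.66). With BMP2, 4 of the 14 rose and 5 fell as deposited, near the 36.8% and 38.4% of all genes tested. With the same total 3 rose and 9 fell, where 3627 of the 14746 genes tested were called higher and 7783 lower.

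Dhcr7, which catalyses a last step of cholesterol synthesis and was singled out after its values were seen, fell by 3.07 on the log2 scale with BMP2 (SE 0.20, limma adjusted p 7.9e-11), and differed by 0.03 with BMP4. Dhcr7 also fell with Tgfb (-1.96, SE 0.31, limma adjusted p 0.0023) and did not pass with BMP5 (-0.52) or BMP7 (-0.46). Set directly against BMP4, BMP2 samples had 11 of the 14 enzymes lower and none higher, under all 3 scalings. As deposited, 33.4% of all genes tested were called lower in that comparison and 33.4% higher. With Tgfb, 2 of the 14 rose and 3 fell, where 27.4% of all genes tested were called higher and 29.3% lower. With BMP7, 1 was higher and 1 lower, against 19.2% and 13.2% of all genes tested. With BMP5, 1 was lower, as were 1455 of the 14746 genes tested.

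**Figure D5:**
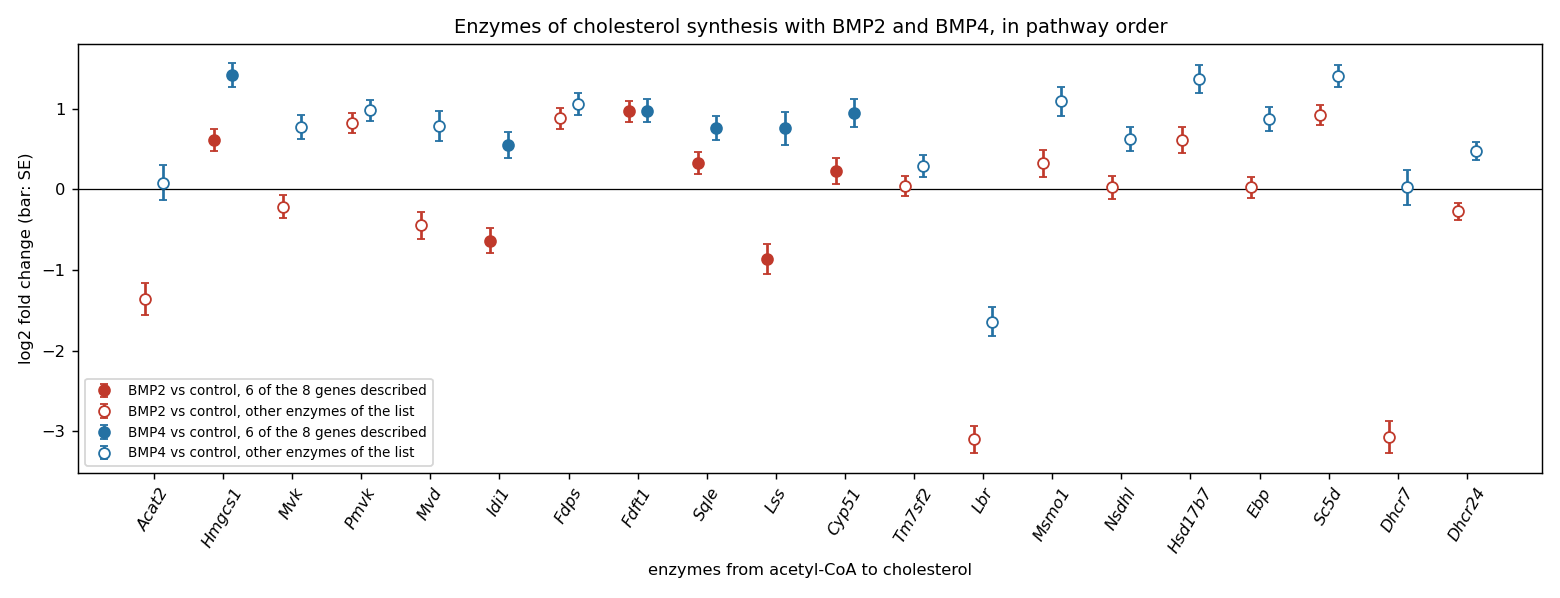
Log2 fold change with its SE for 20 enzymes from acetyl-CoA to cholesterol, in pathway order, with BMP2 (red) and BMP4 (blue) against the controls, as deposited. Filled points are the 6 enzymes among the 8 genes, BMP4 points lie above 0 for all enzymes except Lbr, and BMP2 points lie on both sides, lowest at Lbr and Dhcr7.

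The sensing machinery showed no common direction. Of 14 genes that carry, cut, degrade or hold back SREBP proteins or move sterols, 5 rose and 3 fell with BMP4 and 7 rose and 4 fell with BMP2, against 3 and 8, and 3 and 7, with the same total. As deposited, the BMP4 share of higher calls was near that of all genes tested (33.7%), where 31.4% were called lower. With BMP2, 36.8% of all genes were higher and 38.4% lower. With the same total, 3100 of 14746 genes were called higher and 6864 lower with BMP4, and 3627 and 7783 with BMP2. Insig2, the second INSIG gene, rose with both (1.22, SE 0.15, with BMP4, and 1.06, SE 0.14, with BMP2), whereas its relative Insig1 rose with BMP4 and fell with BMP2. With BMP7, Insig2 differed by 0.25 (limma adjusted p 0.215) and passed with the replicate number as a block (0.26, limma adjusted p 0.0168). Scap, the SREBP escort, differed by 0.02 with BMP4 and rose by 0.31 with BMP2 (-0.14 with the same total). Srebf1, which encodes the related factor of fatty acid synthesis, did not pass with BMP2 (0.16) or BMP4 (0.02) and was called lower with both under the same total.

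Npc1, which exports cholesterol from lysosomes, rose with BMP2 (2.12, SE 0.10), BMP7 (1.41, SE 0.11), BMP5 (1.19, SE 0.11), BMP4 (0.60, SE 0.11) and Tgfb (1.79, SE 0.11). With Tgfb, 5 of the 14 sensing genes rose and 3 fell, where 27.4% of all genes tested were called higher and 29.3% lower. Srebf1 was among those that rose (0.33, SE 0.06, limma adjusted p 0.0047). Scap (0.44, limma adjusted p 0.0694) and Insig2 (0.33, limma adjusted p 0.377) did not pass with Tgfb.

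Other known SREBP2 targets divided with BMP4. Of 5 outside the synthesis pathway, 3 rose and 2 fell, where 33.7% of all genes tested were called higher and 31.4% lower. With the same total 1 rose and 2 fell, where 3100 of the 14746 genes tested were called higher and 6864 lower. Npc1l1, the cholesterol uptake protein of the enterocyte brush border, rose by 2.35 (SE 0.20, limma adjusted p 1.0e-08). With BMP2, 4 of the 5 fell and the other did not pass as deposited, and Tmem97, a sterol-regulated membrane protein, fell by 3.22 (SE 0.19, limma adjusted p 2.7e-11). With Tgfb, 4 of the 5 fell as well, and 2 of the 5 with BMP5 and with BMP7. Tmem97 fell with Tgfb (-1.96, SE 0.10), BMP7 (-1.14, SE 0.21), BMP5 (-1.06, SE 0.21) and BMP4 (-1.04, SE 0.21). Of all genes tested, 38.4% were called lower with BMP2, 29.3% with Tgfb and 13.2% with BMP7, and with BMP5 1455 of 14746 were. All 5 targets were lower with BMP2 than with BMP4, where 33.4% of all genes tested were called lower.

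Over the 20 samples of the BMP table, the genes most like the mean of the 8 standardized members were Msmo1 (r = 0.96), Nsdhl (0.96), Sec63 (0.95), Pqlc3 (0.95), Hsd17b7 (0.94), Gm12671 (0.94), Ebp (0.93), Rab25 (0.92), Abcd4 (0.92) and Ap1m2 (0.92), of 11845 genes ranked. Of these 10, 4 (Msmo1, Nsdhl, Hsd17b7 and Ebp) are on the list of other synthesis enzymes. Gm12671 is uncertain, since it is identical to the Gapdh transcript over 1002 bases. Over the 6 samples of the TGFb table the 9 that had values there correlated with the members' mean at 0.64 (Rab25) to 0.99 (Msmo1). Of the members themselves, Cyp51 (0.97) and Sqle (0.96) were closest to that mean and Srebf2 (0.39) farthest. These correlations rest largely on the differences between groups.

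Markers of cell state moved with the same ligands. The 6 proliferation markers summed to 30210 to 38880 normalized counts in the controls, 2878 to 4569 with BMP2 and 9707 to 13804 with BMP4, and the 5 stem cell markers to 131773 to 158815, 8678 to 19236 and 4699 to 5765. The 6 enterocyte markers summed to 44924 to 86252 in the controls, 307610 to 395200 with BMP4 and 28183 to 76341 with BMP2, so BMP4 samples, which had the higher sterol transcripts, also had the higher enterocyte sums. Goblet markers summed to 19010 to 35270 in the controls and 71720 to 125190 with BMP4. In the TGFb table, proliferation markers summed to 714 to 778 TPM in the controls and 347 to 370 TPM with Tgfb. Enterocyte markers summed there to 3936 to 5729 TPM in the controls and to less, 2942 to 3688 TPM, with Tgfb. Of the 8 sterol genes, 4 rose with Tgfb and 0 fell, so higher sterol transcripts did not go with higher enterocyte sums there. The part of these markers in the results on the 8 genes was not tested.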

How the data were processed

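RNA-seq of 26 organoid samples was used, of 28 in the series. The 2 mesenchymal samples were not used here. In the BMP table the authors deposited a signal: read counts per gene, scaled by 1 factor for each sample and kept to 3 significant digits, as read from the values. Low values were whole multiples of 1 read for 99.1% of 180721 values (within 0.05 read), with 0.826 to 1.28 normalized counts to a read. The TGFb table holds TPM values deposited by the authors, so its depth is unknown. Trim Galore, Salmon, DESeq2 and the build GRCm39 are listed without roles or versions, per the submitters' processing notes. Libraries were sequenced in more than 1 run, per the labels and the series' design text, and which sample was in which is not given, so runs were not tested.

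Tests used limma 3.58.1 (R 4.3.3) on log2(value + 1), two-sided, with a variance trend and Benjamini-Hochberg adjustment over all genes tested, at a threshold of 0.05. Genes needed a mean of at least 10 normalized counts (14746 genes) or 1 TPM (12959 genes), and all 8 members passed both filters. The 6 groups of the BMP table shared 1 fit. Tables were scaled separately, so no test crosses them. The design foresaw edgeR for raw counts, and neither table held any. A log2 fold change on log2(value + 1) understates the change of low genes. Intervals cover 95%. Fits were tested on simulated data.

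Alternatives were a pseudocount of 0.1, no filter, a filter at 50 normalized counts or 10 TPM, quantile normalization, scaling to the same total (BMP table) or by median ratios (TGFb table), the replicate number as a block, only the compared groups, edgeR 4.0.16 and DESeq2 1.42.0 on the recovered reads, and leaving out each replicate. Leaving out replicate IV in all groups was added after seeing the data. Same-numbered samples deviated together (every pair's correlation over 0.1) for BMP3, BMP4, BMP5 and BMP7 against control and BMP5 against BMP7, not for the other comparisons. Members and gene lists were chosen with earlier results of these data known. Named genes were all members, the partners Scap, Insig2 and Srebf1, the paralog Idi2 (no row of the BMP table), per comparison up to 3 list genes that rose most and 3 that fell most without overlap, and the 10 genes most like the members among those with a mean of at least 50. A few genes of the lists are not reported here and were left out of the list counts and the likeness ranking. Transcript overlaps came from a blastn search of GENCODE mouse transcripts (GRCm38).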

Additional observations from a re-analysis of the deposited data

Results flagged for a closer look

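In 54 groups of 4 samples examined over the named genes, 2 had a sample far from the other 3 by Dixon's test at the 95% level, and chance flags about 1 in 20 groups. Srebf1, the factor of fatty acid synthesis, read 3690 normalized counts in BMP2 replicate VI, against 2180 to 2420 in the other 3 BMP2 samples. All 8 sterol genes were also above the BMP2 mean in that sample. Npc1, the lysosomal cholesterol exporter, read 2180 in BMP2 replicate III, against 2500 to 2530 in the others, and all 8 sterol genes were below the BMP2 mean there. No sample of the 8 genes themselves met the criterion in the control or BMP2 group.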

How the results depend on the processing

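Of 1048 values of the 8 genes under an alternative, 943 kept direction and side of the threshold, 50 did not pass either way and changed sign, 39 lost the call, 9 gained it, and 7 changed direction with a call before or after. For the other named genes these were 934, 28, 6, 3 and 6 of 977. Of the 39 lost calls, 21 came with a single replicate left out, 9 with another scaling, 3 without replicate IV in any group and 6 with the other alternatives. All 7 changes of direction came with another scaling.

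With the same total, 4 members were called with BMP2 in place of 7. With quantile normalization 4 were called with BMP4 in place of 7 and 1 with BMP7 in place of 2, which also fell to 1 with no filter, to 0 without replicate IV in any group, and which ranged from 0 to 3 when single replicates were left out. Changes of direction with BMP2 were, with the same total, Sqle -0.13, Cyp51 -0.23 (not called either way), Scap -0.14 and Srebf1 -0.30, and with quantile normalization Sqle -0.24, Cyp51 -0.40, Srebf2 -0.057 and Srebf1 -0.25 (not called either way). With BMP4 they were, with the same total, Srebf2 -0.20, Scap -0.38 and Srebf1 -0.38, and with quantile normalization Srebf2 -0.29, Idi1 -0.063, Scap -0.20 and Srebf1 -0.31. Apart from the scaling itself, the cause was not tested.

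Over all genes, BMP3 against control gave 1 call with DESeq2, 3 with only the compared groups and 0 to 1 when single replicates were left out, against 0 by limma, where 110 genes had an unadjusted p under 0.05. BMP5 against control gave 2515 (without BMP5 replicate III) to 4298 when single replicates were left out, and 2532 without BMP5 replicate VI, against 3884. BMP5 against BMP7 gave 23 with DESeq2, 4 with edgeR, 4 with no filter, 1 with quantile normalization, 1 with the same total, 0 with a pseudocount of 0.1, 0 with the stricter filter, 1 without replicate IV in any group and 0 to 9 when single replicates were left out, against 2.

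With the replicate number as a block, BMP5 against BMP7 gave 6. Srebf2 and Insig2 with BMP7 were called with the block, and it changed no other call of a named gene in the comparisons whose numbers pair the samples. For BMP2 against control the numbers did not pair all samples, and 7 members were called with and without the block. For Tgfb, where same-numbered samples correlated at 0.004 to 0.07, the block gave 6 called members in place of 4, with Idi1 and Sqle added, and called Scap too.

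Counting error does not limit the members, which had at least 1165 reads in each sample of the BMP table. Groups held only 3 or 4 samples, and 21 of the 39 lost calls came with a single replicate left out. Another scaling gave all 7 changes of direction. The Tgfb table keeps no depth.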

Other observations

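Gene groups next to sterol synthesis also differed between the ligands. Targets of the LXR receptors, which sense oxysterols and drive cholesterol export, divided with BMP2 into 4 higher and 4 lower of 8. That is near the shares of all genes tested (36.8% higher, 38.4% lower). With the same total 2 were higher and 4 lower, where 3627 of the 14746 genes tested were called higher and 7783 lower. With quantile normalization 3 were higher and 4 lower, against 5403 and 5541 of the 14746. Abcg1 (log2 fold change 3.50, SE 0.38) and Abca1 (2.52, SE 0.22), which export cholesterol to lipoproteins, rose with BMP2, and Abcg5 (-2.13, SE 0.29), which with Abcg8 returns sterols to the gut lumen, fell. With BMP4, Abcg5 rose (2.14, SE 0.31) and Abca1 did not pass (0.27, limma adjusted p 0.326). Directly compared, Abcg1, Mylip and Abca1 were higher with BMP2 and Abcg8 (-4.50) and Abcg5 (-4.27) lower.

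Of 9 tested genes of SREBP1-driven fatty acid synthesis, 7 fell and 1 rose with BMP2, and 7 fell and 1 rose with Tgfb. With BMP4, 3 fell and 4 rose. Of all genes tested, 38.4%, 29.3% and 31.4% were called lower with BMP2, Tgfb and BMP4, and 36.8%, 27.4% and 33.7% higher. With the same total, 5 of the 9 fell and 3 rose with BMP4, where 6864 of the 14746 genes tested were called lower and 3100 higher. With BMP5 and BMP7, 1 rose each, which was Me1. Of the 14746 genes tested, 2429 were called higher with BMP5 and 19.2% with BMP7. Me1, which supplies NADPH, also rose with BMP2 (2.82, SE 0.22). The desaturase gene Fads1 fell with BMP2 (-3.56, SE 0.22), BMP4 (-1.68, SE 0.24) and Tgfb (-0.76, SE 0.10), while the desaturase gene Scd1 rose with BMP4 (2.19, SE 0.61). Soat1, which esterifies cholesterol for storage, fell with BMP2 (-1.99, SE 0.17), BMP4 (-2.17, SE 0.19), BMP5 (-1.17, SE 0.19), BMP7 (-1.73, SE 0.19) and Tgfb (-2.79, SE 0.13). Pdss1, on the branch from the same isoprenoids to coenzyme Q, fell with BMP2 (-3.62, SE 0.17), BMP4 (-1.32, SE 0.18), BMP5 (-1.48, SE 0.18), BMP7 (-1.70, SE 0.18) and Tgfb (-2.78, SE 0.08). It was among the most fallen of 9 listed genes that use these isoprenoids. Of the 9, 5 fell and 3 rose with BMP2 (38.4% and 36.8% of all genes tested), with a median of -0.20. With BMP4, 3 fell and 1 rose (31.4% and 33.7% of all genes tested), with a median of 0.11. The calls with BMP2 and BMP4 given here for single genes passed in the same direction with the same total and with quantile normalization.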
